A study of Mus musculus with 4 samples.

Results

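The cells described here carried at least 1 UMI of Pitx1 and at least 1 UMI of Lhx3 at embryonic day 14.5. They numbered 212 of the 4618 cells kept at that age and of the 5950 cells kept in all. A UMI, or unique molecular identifier, stands for 1 captured RNA molecule. The study profiled single cells of the mouse cochlear duct from a Sox2-GFP line (genotype Sox2-GFP/WT, cell type labelled auditory cells), with 2 libraries at E12.5 and 2 at E14.5. Vestibular tissue had been dissected away and GFP-positive cells collected by flow sorting after dissociation, so every group shared the reporter allele and the sort. The labels name no treatment, and they do not say how many embryos entered a library. Every member lay in a single library, E14.5 replicate 2. The members were compared with the other 2837 kept cells of that library and with the 572 of these that carried both Epcam and Gata3, called otic cells here.

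Pitx1 and Lhx3 encode homeodomain transcription factors that act together in Rathke's pouch, the fold of oral ectoderm that becomes the anterior and intermediate pituitary. Cells of the pouch at first share Pitx1, Lhx3, Hesx1 and Sox2. They then separate into a Pou1f1 lineage, which yields the cells that make growth hormone, prolactin and thyrotropin, and a Tbx19 lineage, which yields the corticotropes and melanotropes that process the Pomc precursor. Cga encodes the alpha subunit shared by thyrotropin and the gonadotropins, and Tshb encodes the beta subunit of thyrotropin. Lhx3 is also a gene of hair cells and of motor neurons, and Pitx1 is also a gene of oral ectoderm and hindlimb.

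The 4 libraries held 694, 737, 1705 and 3298 barcodes, with 12945421, 14822617, 39903952 and 74034411 UMIs, and 648, 684, 1569 and 3049 barcodes were kept. Barcodes found in 2 libraries numbered at most 1 per pair, and 1 member had its barcode in E12.5 replicate 1 as well. The doublet caller marked only 2 of the 3049 cells (0.0656%), too few for its calls to be relied on, and no cell was left out as a doublet. Members had a median of 18502.5 UMIs and 4692.5 genes, against 20245 and 4778 in otic cells and 18356 and 4514 in the other kept cells. Their median mitochondrial share was 5.65%, against 4.6% in otic cells and 4.13% in the others. Intervals below are exact 95% intervals that cover counting error only, and since members came from 1 library no test between groups was possible.

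The 212 members made up 6.95% of kept cells in E14.5 replicate 2 (Clopper-Pearson interval 6.08 to 7.91). With a limit of 5% mitochondrial UMIs, 54 members remained, or 2.38% of the cells kept. In E14.5 replicate 1, 0 of 1569 kept cells qualified, which by a floor of 3 counts allows a share of up to 0.191%, and by the exact interval 0.235%. In E12.5 replicates 1 and 2, 0 of 648 and 0 of 684 cells qualified, which by that floor allows up to 0.463% and 0.439%. The libraries did not differ in this way for Pitx1 alone: 320 cells of replicate 1 (20.4%) carried it without Lhx3, and so did 547 cells of replicate 2 (17.9%). A gene that the choice of cells did not use was also found mainly in replicate 2, and there mainly in the members themselves. Six6, a pituitary homeobox gene, was detected in 192 members and in 23 other cells of replicate 2, and in 7 of the 1569 cells of replicate 1. Outside the members its shares were 0.811% in replicate 2 and 0.446% in replicate 1.

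The values that chose the members ranged from 1 to 99 UMIs for Pitx1, with a median of 14, and from 1 to 40 for Lhx3, with a median of 4. Just inside the threshold were 31 members with a single Lhx3 UMI, of which 24 carried Six6. Just outside it were 26 cells of replicate 2 with Lhx3 and no Pitx1, of which 20 carried Atoh1 and 20 carried Pou4f3, transcription factor genes of hair cells, and 0 carried Six6. Of the 547 cells with Pitx1 and no Lhx3, 19 carried Six6, 80 carried Krt14, a keratin of stratified epithelium, and 265 carried Gng13, a G protein subunit gene of olfactory neurons. At 2 or more UMIs of both genes, 179 cells remained in replicate 2 and 0 in each of the other 3 libraries. The genes lie on chromosome 13 at 55825051 to 55836192 (Pitx1) and chromosome 2 at 26200212 to 26208289 (Lhx3), on the minus strand of GRCm38.

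**Figure D1:**
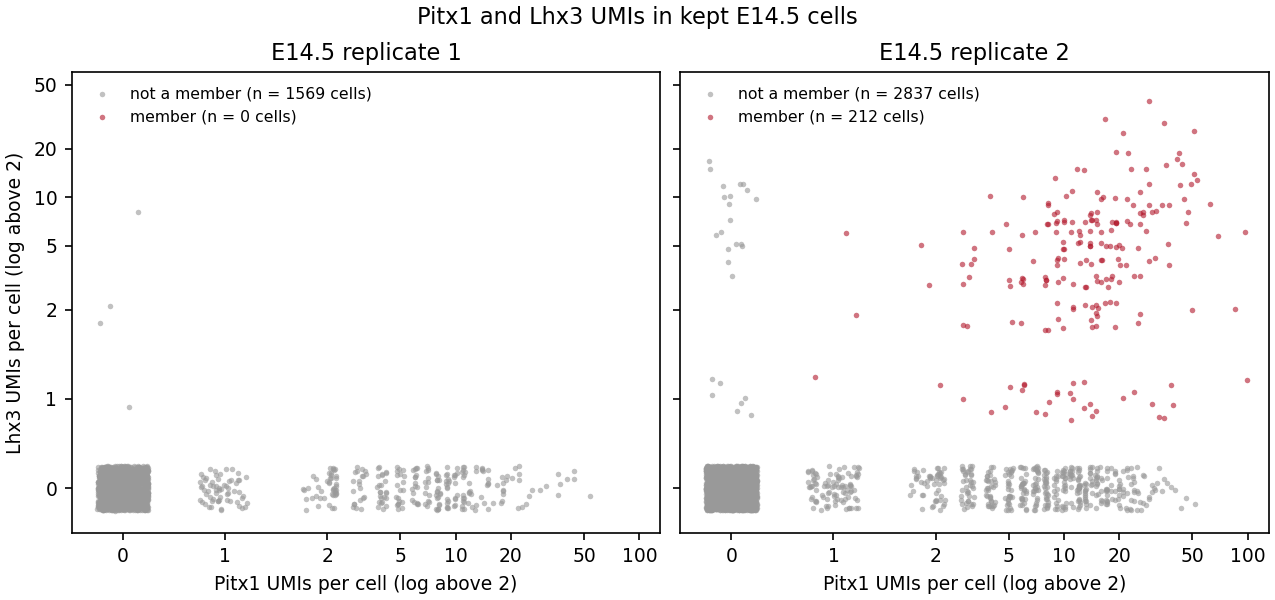
Pitx1 UMIs (horizontal) and Lhx3 UMIs (vertical) in each kept E14.5 cell, by library, on axes that are logarithmic above 2 and with a small random offset so that cells do not overprint. Red points are the 212 members, all in replicate 2, and grey points are the other cells, among which none has both genes by construction.

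The label pituitary was checked against genes that had no part in choosing the cells. The gene lists were drawn up with earlier results of these data known, so the check was not an independent one. Six6 was detected in 90.6% of members, against 0.699% of otic cells and 0.811% of the other cells. Thinned to 5000 UMIs per cell, which leaves out 1 member, the share of members was 68.2%. As CPM, the summed UMIs of a gene scaled to a total of 1000000, Six6 stood at 307 in members, 1.34 in otic cells, 1.24 in the other cells and 0.785 in otic cells of replicate 1. Early pouch factors were rarer. Lhx4, a paralog of Lhx3, stood at 23.4 CPM and was detected in 31.6% of members. Hesx1, an early repressor of the pouch, stood at 11.6 CPM (16.5% of members). In otic cells Lhx4 stood at 0.318 CPM and Hesx1 at 0.

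Of the 16 pituitary transcription factors listed, 15 had a mean of at least 5 CPM and could be compared with otic cells. At the 4-fold limit used throughout, 7 were higher in members and 3 lower, with a median log2 ratio of 0.82 against 0.09 over all 10838 genes compared. At that limit 3.67% of all genes compared were higher in members and 2.93% lower. Six3, a forebrain and pouch factor, stood at 147 CPM in members and 8.66 in otic cells of the same library, but at 97.1 CPM in otic cells of replicate 1. Pax6 stood at 71.9 CPM in members and 6.24 in otic cells. Eya1 (103 against 139 CPM) and Zbtb20 (177 against 290.0) lay within 4-fold. Sox9, a progenitor factor of both tissues, was lower, at 38.0 against 258 CPM, and so was Sox21, at 0.714 against 35.5 CPM. Isl1 stood at 89.6 CPM in members and 318 in otic cells. Sox2 reached 79.6 CPM and 51.4% of members, against 149 CPM and 59.6% of otic cells. Sox3 had 2 UMIs in all members, or 0.357 CPM, and Otx2, the remaining gene that was lower, stood at 4.64 against 19.5 CPM in otic cells.

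**Figure D2:**
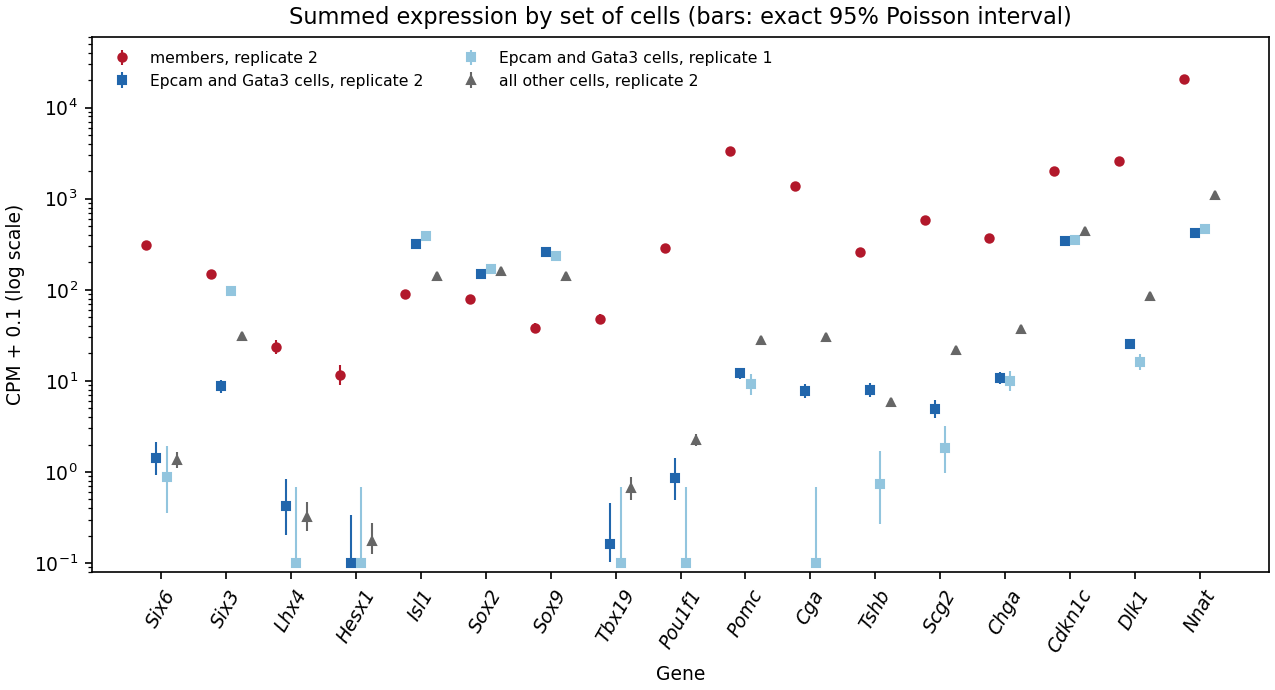
Level of each gene, as CPM + 0.1 on a log axis, in members (red), in otic cells of replicate 2 (dark blue) and replicate 1 (light blue) and in all other cells of replicate 2 (grey). Bars are exact 95% Poisson intervals of the summed count. Six6 stands at 307 CPM in members, and Sox9 and Isl1 are lower in members than in the otic cells of either library.

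Among all genes compared with otic cells, 398 of 10838 were at least 4-fold higher in members and 318 lower. The highest ratios belonged to Pou1f1, at 289 against 0.764 CPM (378-fold, 216 to 733), and to Pomc, at 3321 against 12 CPM (276-fold, 239 to 320). Six6 was 230.0-fold higher, and Cga stood at 1375 against 7.70 CPM (178-fold, 149 to 215). Irs4, an insulin receptor substrate gene, was detected in 86.8% of members and stood at 234 against 1.66 CPM. Scg2, a granin of secretory granules, stood at 589 against 4.84 CPM, and Dlk1, an imprinted gene for a membrane protein related to Notch ligands, at 2607 against 25.1 CPM. Aldh1a2, a retinoic acid synthesis enzyme, stood at 144 against 1.40 CPM, and Rbp4, a retinol carrier, at 216 against 2.36 CPM. Cartpt, a neuropeptide precursor (73.4 against 0.827 CPM), and Peg10, an imprinted gene (115 against 1.34 CPM), followed. Scaling by the median of ratios in place of CPM moved every ratio in this comparison by 0.15 on the log2 scale.

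Genes lower in members than in otic cells were led by genes of the otic epithelium. Tectb, a gene of the tectorial membrane, had 2 UMIs in members (0.357 CPM) against 185 CPM, a ratio of 345 with an interval of 143 to 4270. Oc90, an otoconial protein gene, stood at 4.46 against 1166 CPM (261-fold, 177 to 404), and Tecta, which encodes a second tectorin, at 3.39 against 239.8 CPM. Mia (14.6 against 692 CPM), the proteoglycan gene Dcn (2.14 against 86.9), Fst, which encodes an activin inhibitor (3.75 against 129), the long noncoding RNA Pantr1 (2.68 against 94.7), the zinc finger gene Sall3 (2.68 against 84.2) and the gut hormone gene Pyy (3 UMIs, 0.536 against 64.3) followed. Ttr, the thyroid hormone carrier, stood at 6.07 against 578 CPM, but with otic cells taken at 2 or more UMIs of Epcam and Gata3 its log2 ratio was 1.14, higher in members. Of the 22 otic epithelium genes listed, 19 were compared and 17 were at least 4-fold lower. The other 2 were Cldn9, at 181 against 318 CPM, and Lmx1a, at 10.7 against 33.6 CPM. Over all genes compared with otic cells, 2.93% were lower at that limit. Gata3, a gene of this list, chose the otic cells and was not compared, so the count is no independent check of the members.

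Against all other kept cells of the library, 182 of 11289 genes were at least 4-fold higher in members, or 1.61%, and 445 were lower, or 3.94%. Without the minimum of 5 CPM the counts were 1773 higher and 913 lower, so the balance turned. Six6 (247.5-fold, 199 to 312), Pou1f1 (134-fold), Irs4 (124-fold) and Pomc (119-fold) were among the highest. They were followed by Nup62cl (109 against 1.75 CPM), by Ndufa4l2, a gene related to a respiratory chain subunit (384 against 6.57 CPM), and by Aldh1a2. Lower in members were Ttr (6.07 against 1431 CPM) and Oc90, and the myeloid genes S100a8, S100a9, Lyz2 and C1qa, each with 1 UMI in all members (0.179 CPM) against 98.3, 81.7, 72.2 and 68.3 CPM.

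Genes of regulated secretion were high in members. Of the 15 listed, 14 were compared with otic cells, 10 were at least 4-fold higher and 0 lower, with a median log2 ratio of 3.74. Over all genes compared with otic cells, 3.67% were higher and 2.93% lower. Against the other kept cells, which include neurons, 5 of 14 were higher and 0 lower, with a median of 0.91. In that comparison 1.61% of all genes were higher and 3.94% lower. Chga and Chgb, granins like Scg2, stood at 366 and 218 CPM in members, 10.8 and 4.58 in otic cells and 36.8 and 16.1 in the others. Scg5 (286 CPM) was detected in 96.2% of members, and Insm1, a transcription factor gene of endocrine and neural precursors (392 CPM), in 94.8%. Prohormone convertase genes were low, with Pcsk1 at 5.71 CPM and Pcsk2 at 4.82. The peptide processing genes Cpe and Pam stood at 103 and 82.3 CPM, against 60.2 and 38.1 in otic cells.

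Most cell cycle genes had lower levels in members than in otic cells, and an inhibitor gene had a higher one. All 22 listed genes of G2 and M phase were compared with otic cells, with a median log2 ratio of -1.10, and 1, Ube2c, was at least 4-fold lower, at 114 against 463 CPM. Over all genes compared, 2.93% were lower at that limit. The 19 S phase genes compared had a median of -0.86. Mki67 stood at 38.7 CPM in members and 70.1 in otic cells, and Top2a at 60.3 and 158. Cdkn1c, an imprinted gene for a cyclin-dependent kinase inhibitor, stood at 1994 CPM in members and was detected in 99.1% of them, against 343 CPM in otic cells and 441 in the others. It was the only one of 7 listed inhibitor genes that was at least 4-fold higher in either comparison, and Cdkn2c was lower than in the other cells, at 2.32 against 11.8 CPM.

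Several further imprinted genes were high, which led to a list of 30 of them being drawn up after the values were seen. Of these, 26 were compared with otic cells, 13 were at least 4-fold higher and 2 lower, with a median log2 ratio of 2.02. Over all genes compared with otic cells, 3.67% were higher and 2.93% lower, with a median of 0.09. Against the other kept cells, 12 of 26 were higher and 1 lower, and over all genes 1.61% were higher and 3.94% lower. Since high values prompted the list, these counts are a description and no check of it. Their sum was 36360 CPM in members, 3505 in otic cells and 5047 in the other cells. Nnat, a membrane proteolipid gene, supplied the largest share of it, at 20531 CPM against 416 and 1102.5, and was detected in all 212 members. Gnas, the G protein alpha subunit locus, stood at 5220 against 938 and 1134 CPM, Meg3, a long noncoding RNA beside Dlk1, at 2229 against 144 and 329, and Peg3 at 1212 against 84.8 and 93.6. The imprinted genes H19 (170.3 against 196 CPM in otic cells) and Igf2 (91.6 against 65.8) lay within 4-fold, and Grb10 stood at 112 against 293.

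Signalling genes gave a mixed picture. For all genes compared with otic cells, 3.67% were at least 4-fold higher in members and 2.93% lower. In short lists such as these, counts of 0 or 1 say little beside those shares. Of the Notch genes, 13 were compared with otic cells, 3 were at least 4-fold higher (the ligand genes Dll1 and Dll3, and Dlk1) and 3 lower. Dll1 stood at 34.1 against 3.76 CPM and Dll3 at 31.1 against 1.46. Notch1 was lower, at 8.03 against 95.9 CPM, while Notch2 stood at 255 against 107, and the ligand gene Jag1 at 53.9 against 242. Of 11 FGF genes compared, 0 were higher and 2 lower, and of 13 BMP genes 0 were higher and 4 lower, among them Bmp4, at 9.82 against 150.3 CPM. Of 14 Wnt genes, 0 were higher and 3 lower, the ligand genes Wnt7a (2 UMIs, or 0.357 against 19.4 CPM) and Wnt5a (17.1 against 73.8) and the inhibitor gene Sfrp1 (38.7 against 582). Of 8 Hedgehog genes, 1 was higher and 1, Boc, lower, at 4.46 against 27.4 CPM, while Shh itself had 1 UMI in all members. Of 14 genes of the response to dissociation, 0 were at least 4-fold higher and 1, Ier3, lower, with a median log2 ratio of 0.78, and Fos stood at 1458 against 505 CPM. The median mitochondrial share of members was also higher than in otic cells, and its relation to these values was not tested.

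Markers of other cell types were looked for in the members. Macrophage markers summed to 3.21 CPM over 7 genes, with Csf1r at 0, erythroid markers to 12.7 CPM over 7, motor neuron and V2 interneuron markers to 3.57 CPM over 7, 5 of them at 0, hindlimb markers to 1.43 CPM over 6, and oral ectoderm markers to 14.1 CPM over 8. Neuron markers summed to 691 CPM over 8 genes, against 682 in otic cells, and olfactory neuron markers to 311 over 7, against 254.5. Hair cell markers other than Lhx3 summed to 197 CPM, against 121 in otic cells, with 0 of 6 compared higher and 2 lower. Endothelial markers summed to 64.3 CPM against 20.9, with 2 of 3 compared higher, and mesenchyme markers to 114 against 460.5, with 3 of 6 higher and 2 lower. Over all genes compared with otic cells, 3.67% were higher at the 4-fold limit and 2.93% lower. Cortical neuron markers summed to 113 CPM, markers of hypothalamus and posterior pituitary to 111 and chondrocyte markers to 104, against 137, 173 and 801 in otic cells. The part of these cell types in the other results was not tested. In 25 members, at least 1 other type was marked: 16 carried Gata3 beside Epcam, 9 had 3 or more UMIs of Gng13, and 1 each had 3 or more of Neurod6 and Atoh1, while 0 had 3 or more of Tyrobp. These 25 had a median of 37094 UMIs, against 17633 in the other 187. Without them, 397 and 376 genes were at least 4-fold higher and lower than in otic cells, and Pomc stood at 3496 CPM.

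The members were divided by 3 transcription factor genes of pituitary lineages, each taken as present at 1 UMI. Pou1f1 was detected in 109 members (51.4%), Tbx19 in 53 (25%) and Sox2 in 109. The Pou1f1 class, with Pou1f1 and no Tbx19, held 90 cells, the Tbx19 class, with Tbx19 and no Pou1f1, held 34, and 19 cells carried both. The Sox2 class, with Sox2 alone of the 3, held 42 cells, and 27 cells carried none. Sox2 was also present in 56 of the members with Pou1f1 and in 18 of those with Tbx19. Median depth differed between classes, at 14046.5 UMIs in the Pou1f1 class, 24183 in the Tbx19 class, 34848 in the cells with both, 23118 in the Sox2 class and 15828 in the cells with none. Absence of a factor at these depths does not show that a cell lacked it. The classes were cut from the same cells, so the levels below are a description.

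Six6 was present across all classes, at 189 to 363 CPM. It was detected in 55.6% of the cells with none of the 3 factors and in 88.1% to all cells of the other classes. Hesx1 stood at 25.2 CPM in the Sox2 class and 6.37 in the Pou1f1 class, and Lhx4 at 15.4 and 40.0 CPM.

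Mki67, a gene of cycling cells, was most often found in the Sox2 class. It was detected in 47.6% of its cells, against 6.67% of the Pou1f1 class, 26.5% of the Tbx19 class, 5.26% of the cells with both factors and 7.41% of those with none. After thinning to 5000 UMIs the shares were 21.4%, 4.44%, 14.7%, 5.26% and 3.85%. Of the G2 and M phase genes, 17 of 22 were at least 4-fold lower in the Pou1f1 class than in the Sox2 class, with a median log2 ratio of -2.44 against 0.03 over all genes. Over all genes compared between these classes, 2.93% were lower at that limit in the Pou1f1 class and 1.44% higher. The Notch target gene Hes1 and the receptor gene Notch2 stood at 238 and 352 CPM in the Sox2 class, 221 and 323 in the Pou1f1 class, 138 and 140 in the Tbx19 class and 78.3 and 137 in the cells with none. Of 9 FGF genes compared, 5 were at least 4-fold lower in the Pou1f1 class than in the Sox2 class and 0 higher. They were Fgf8, the feedback regulator genes Spry1 (25.5 against 127 CPM) and Spry4 (2.90 against 15.4), and the target genes Etv4 (1.74 against 21.7) and Etv5 (1.74 against 16.8). In the Sox2 class, 7 cells carried markers of other cell types, and their part in the cell cycle and FGF values was not tested.

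Between the Pou1f1 and Sox2 classes, 154 of 10687 genes were at least 4-fold higher in the former, or 1.44%, and 313 were lower, or 2.93%. Ndufa4l2 stood at 974 against 43.3 CPM (22.5-fold, 17.5 to 29.5) and was detected in 83 of the 90 cells. Nup62cl stood at 178 against 7.68 CPM, Phox2a, a homeodomain factor gene known from autonomic neurons, at 97.3 against 4.89, Cartpt at 163 against 11.9 and C2cd4b at 173 against 13.3. Phox2a was detected in 65 cells of the class and Nup62cl in 53. March1, Col3a1 and Pomc were the others named, with Col3a1, a fibrillar collagen gene, at 77.6 against 4.89 CPM. Col3a1 was detected in 24 cells of the Pou1f1 class, and 45 of its 134 UMIs lay in 1 cell. All 6 endothelial markers compared were higher in the Pou1f1 class, but 96 of the 114 UMIs of Egfl7 and 27 of the 28 UMIs of Esam lay in 1 cell each.

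The 8 genes named as lower in the Pou1f1 class were Crabp1, Gap43, Lhx2, Ccer2, Calb2, Elavl3, Prph and Stmn2, several of them genes of neurons. In the Sox2 class Stmn2 stood at 331 CPM in 7 of 42 cells, Gap43 at 101 CPM in 9, Calb2 at 67.1 CPM in 5 and Crabp1 at 125 CPM in 3. Calb2 had 0 UMIs in the Pou1f1 class, which at a floor of 3 UMIs makes it at least 38.6-fold lower there. The olfactory neuron markers summed to 601 CPM in the Sox2 class and 26.7 CPM in the Pou1f1 class. Without the members that carried other cells' markers, Crabp1 stood at 0.969 CPM in the Sox2 class, Gap43 at 4.84, Calb2 at 0 and Stmn2 at 2.91, and the log2 ratio of Stmn2 was 1.65, higher in the Pou1f1 class. The counts of genes were then 169 higher and 243 lower.

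Pomc was highest in the cells with Tbx19. It stood at 8088 CPM in the Tbx19 class and 11142 in the 19 cells with Tbx19 and Pou1f1, at 16.8 in the Sox2 class (482.5-fold below the Tbx19 class, 324 to 753) and at 147 in the Pou1f1 class. Of the 9 corticotrope and melanotrope genes listed, 5 were compared between the Tbx19 and Sox2 classes, and 3 were at least 4-fold higher and 0 lower. Over all genes compared between these classes, 1.65% were higher and 0.639% lower. Neurod1, a partner of Tbx19 at the Pomc gene, stood at 310.2 CPM and was detected in 79.4% of the class, against 21.7 CPM in the Sox2 class and 61.4 in the Pou1f1 class. Crhr1, the receptor gene for corticotropin-releasing hormone, had 24 UMIs in 32.4% of the Tbx19 class and 0 UMIs in the Sox2 and Pou1f1 classes. The synaptic vesicle gene Syt1 stood at 211 CPM against 36.3 and 23.2, Wnt4 at 104.5 against 25.8 and 8.69, and Dll3 at 63.7 against 13.3 and 8.11. In the cells with both factors, Neurod1 stood at 298 CPM, Crhr1 at 40.3 and Syt1 at 216. Pax7, a factor of melanotropes, had 0 UMIs in the Tbx19 class, and Avpr1b, the vasopressin receptor gene of mature corticotropes, had 1.

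Of 10802 genes, 178 were at least 4-fold higher in the Tbx19 class than in the Sox2 class, or 1.65%, and 69 were lower, or 0.639%. Of 13 otic epithelium genes compared, 5 were higher in the Tbx19 class and 0 lower, with a median log2 ratio of 1.20, and their part in the other differences was not tested. Several of the genes named as higher had most of their UMIs in 1 cell. This held for 214 of the 217 UMIs of Sncg, 408 of the 596 of Clu and 49 of the 79 of Lum. Gata3 was detected in 3 cells of the class and 0 of the Sox2 class, and Sytl4 stood at 71.0 against 1.40 CPM. Without the members that carried other cells' markers, the log2 ratio of Clu was -1.67, higher in the Sox2 class. Ccer2, Calb2 and the cyclin gene Ccnb2 (22.9 against 103 CPM) were the genes named as lower.

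Between the Pou1f1 and Tbx19 classes, 145 of 10746 genes were at least 4-fold higher in the former, or 1.35%, and 269 were lower, or 2.5%. Among the lower genes were 7 of 11 otic epithelium genes compared, 4 of 8 neuron genes and 5 of 6 olfactory neuron genes. Olfactory neuron genes summed to 26.7 CPM in the Pou1f1 class and 442 in the Tbx19 class. Lhfp stood at 355 against 15.5 CPM (22.9-fold, 14.5 to 38.2), Ndufa4l2 at 974 against 63.7, the receptor gene Adgrg2 at 107 against 4.90, the peptide gene Apela at 69.5 against 4.08 and the protocadherin gene Pcdh8 at 74.2 against 5.71. March1 stood at 75.3 against 1.63 CPM, with 2 UMIs in the Tbx19 class, and Col3a1 and Egfl7 were the others. Pomc was 55.2-fold lower (48.7 to 62.8) in the Pou1f1 class. Prph, Gap43, Lhx2, Crabp1, Clu and Stmn2 were lower too. Of the 299 Prph UMIs of the Tbx19 class, 271 lay in 1 cell. Without the members that carried other cells' markers, the log2 ratio of Clu was 1.48, higher in the Pou1f1 class.

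**Figure D3:**
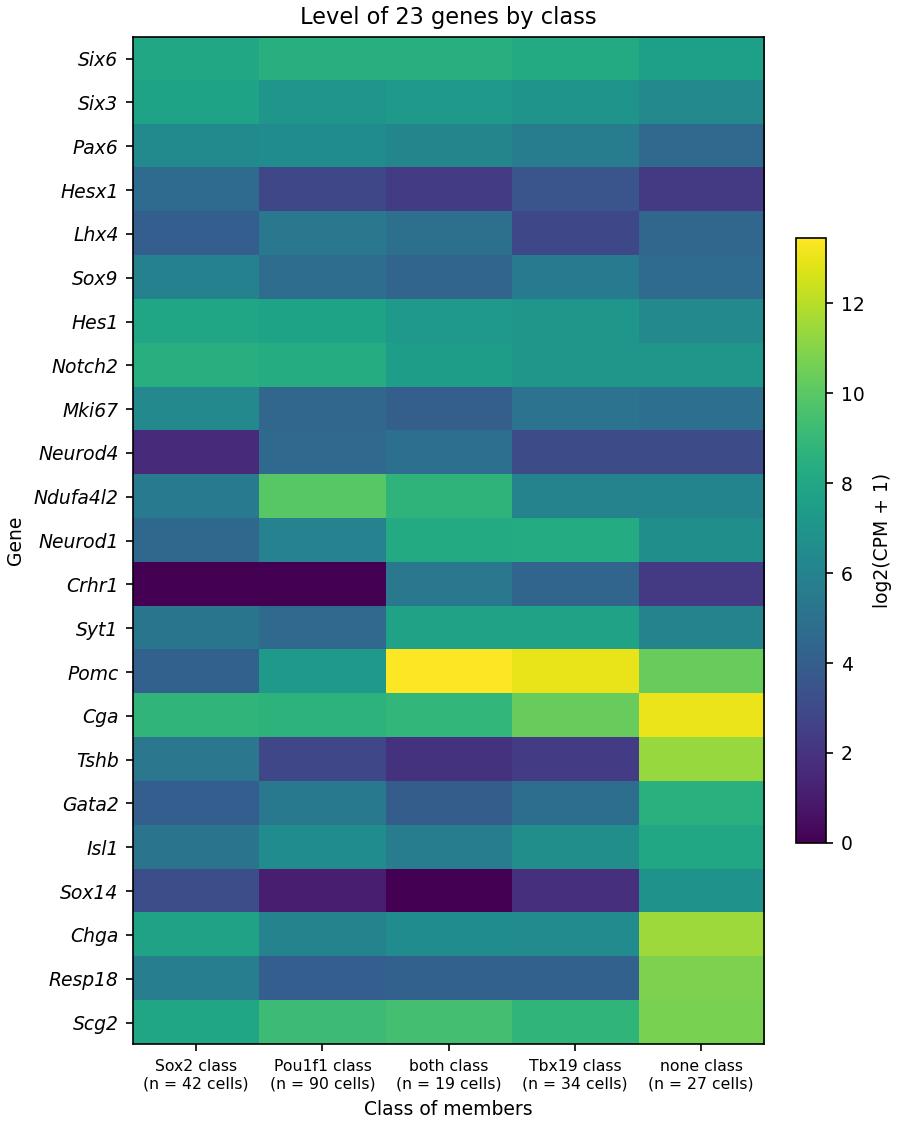
Level of selected genes, as log2(CPM + 1), in each class of members, with the number of cells under each column. Pomc is highest in the columns with Tbx19 (8088 CPM in the Tbx19 class), Ndufa4l2 in the Pou1f1 class (974 CPM), Mki67 in the Sox2 class (78.9 CPM), and Cga, Tshb, Chga and Resp18 in the class with none of the 3 factors.

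The 27 cells without Pou1f1, Tbx19 and Sox2 had the highest levels of Cga and Tshb. Cga stood at 8460 CPM in them and at 409 to 1293 CPM in the other classes. Tshb stood at 2660 CPM in them and at 14.8 in the other 185 members (180.1-fold, 143 to 230). Of 10769 genes, 204 were at least 4-fold higher in these 27 cells than in the other members, or 1.89%, and 54 were lower, or 0.501%. Resp18, a gene of endocrine secretory granules, stood at 1796 against 26.8 CPM, Calb1, a calcium-binding protein gene, at 481 against 10.8, and Sox14 at 116 against 3.35. Cck, the cholecystokinin precursor gene, stood at 113 against 0.394 CPM, where the other members had 2 UMIs. Apoc3, Kcnk3, a potassium channel gene, and Pnoc, an opioid-related peptide precursor gene, were the other genes named. Resp18 was detected in 13 of the 27 cells, Sox14 in 10, Calb1 in 8, Apoc3 in 7 and Cck in 5. Chga stood at 2794 CPM in the 27 cells, Scg2 at 1716, Gata2, a factor of thyrotropes and gonadotropes, at 365 and Isl1 at 260, against 15.4 to 100.4 CPM for the last 2 genes in the Pou1f1, Tbx19 and Sox2 classes. Fbn2, Ppp1r14a, Cartpt, Lhfp, Ndufa4l2, Clu, Sytl4 and Rgs2 were lower in the 27 cells. For Clu the log2 ratio was 0.06 without the members that carried other cells' markers, and for Sytl4 it was 0.22 among cells under 5% mitochondrial UMIs, of which 4 had none of the factors. With so few cells, setting counts under 3 to 3 can raise such a ratio.

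Hormone transcripts were concentrated in a minority of members. Counted per 10000 UMIs of a cell, Pomc had a median of 0.258, reached 804 in the highest member and was at 10 or more in 42 members (19.8%). These 42 cells held 99.0% of all Pomc UMIs of the members. Of them, 35 carried Tbx19, 39 carried Neurod1 and 20 carried Pou1f1. By class, 20 of 34 in the Tbx19 class, 15 of 19 with both factors, 5 of 90 in the Pou1f1 class, 2 of 27 with none and 0 of 42 in the Sox2 class were at that level. Among the other 2837 cells 6 were, and in replicate 1 none of 1569. A Pomc UMI was found in 53.3% of members, but also in 21.5% of the other cells of the library and in 20.6% of the cells of replicate 1, which held no member. A single Pomc UMI therefore did not set members apart, and no cell of replicate 1 had more than 6 UMIs.

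Cga was at 10 or more UMIs per 10000 in 33 members, which held 96.3% of its UMIs, in 9 other cells of the library, all with Pitx1, and in 0 cells of replicate 1. By class, these were 14 of 27 cells with none of the factors, 8 of 90 in the Pou1f1 class, 8 of 34 in the Tbx19 class, 2 of 19 with both and 1 of 42 in the Sox2 class. Of the 33, 11 were also at that level for Pomc, 28 carried Neurod1 and 10 carried Nr5a1, a gonadotrope factor gene. Nr5a1 was detected in 5.66% of members and Gnrhr, the gonadotropin-releasing hormone receptor gene, in 3.77%.

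Tshb was at 10 or more UMIs per 10000 in 8 members, 7 with none of the factors and 1 in the Sox2 class. Its counts in those 8 cells were 540, 310, 203, 118, 84, 76, 62 and 57 UMIs, and together they held 98.7% of the Tshb UMIs of the members. All 8 had 0 UMIs of Pou1f1, at depths of 13793 to 48358 UMIs, and 0 of Tbx19. All 8 were also at 10 or more for Cga, with 229 to 912 UMIs, and all 8 carried Gata2 (6 to 54 UMIs), Isl1 (7 to 25), Chga (92 to 305), Rorb, a nuclear receptor gene (19 to 91), and Sox14 (2 to 12). The other 20 cells with none of the factors lay below 10 per 10000, as did all cells of the Pou1f1 class, the Tbx19 class and the class with both. Tshb-positive cells at the rostral tip of the pouch that arise without Pou1f1 are known from mouse embryos. Rorb and Sox14 were singled out here after their values were seen.

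The remaining hormones were near 0. Gh had 0 UMIs in the members and Prl and Fshb had 1 each, which at 5602043 UMIs puts each of the 3 under the limit that a count of 0 allows, 0.536 CPM. Lhb had 5 of the 5602043 UMIs of members and 113 of the 67623234 UMIs of the other cells of the library. The receptor genes Ghrhr and Drd2, of somatotropes and lactotropes, had 0 UMIs each, and Trhr had 4. Neurod4, a factor of the Pou1f1 lineage, was detected in 30.0% of the Pou1f1 class and 7.14% of the Sox2 class.

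**Figure D4:**
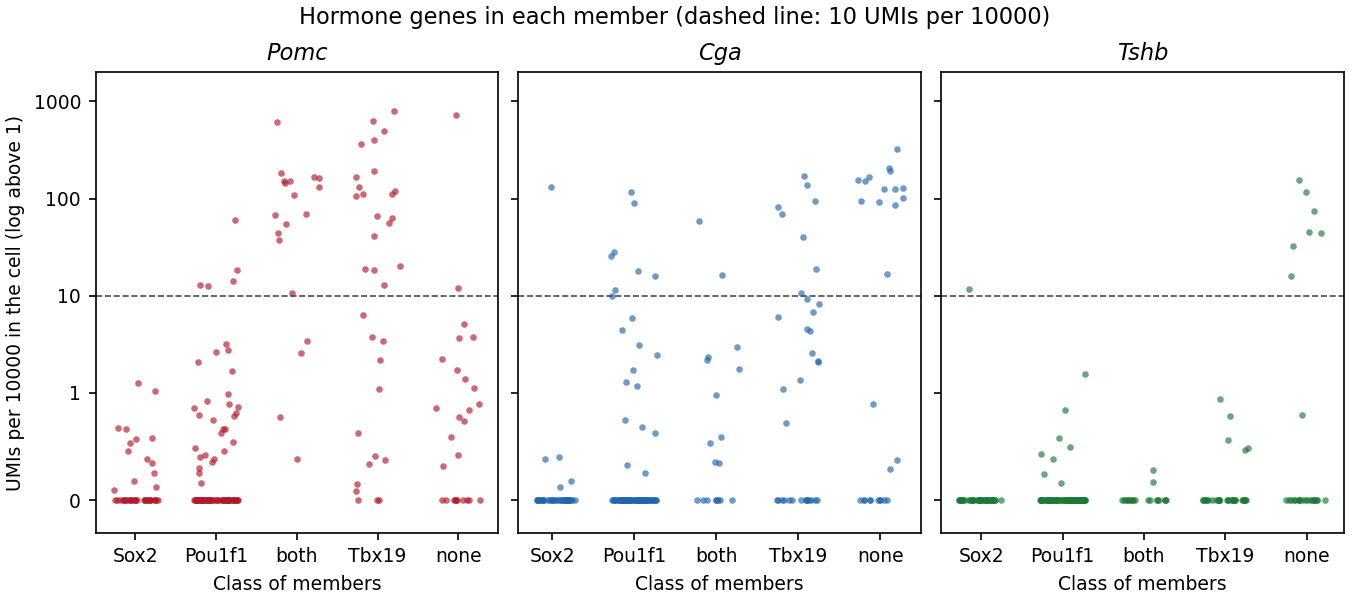
UMIs of Pomc, Cga and Tshb per 10000 UMIs in each member, by class, on an axis that is logarithmic above 1, with a random sideways offset. The dashed line marks 10 per 10000, reached for Pomc by 20 of 34 cells of the Tbx19 class, for Cga by 14 of 27 cells with none of the 3 factors, and for Tshb by 8 cells, 7 of them in that class.

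The promoters shown are those of Pomc, Cga and Tshb, hormone genes that were high in some members, and of Pou1f1, which was used to define classes. The windows are the 250 bases before the transcription start, 5′ to 3′ on the gene's strand, from RefSeq on GRCm38.p6. For Pou1f1 the first of 2 starts is shown, and the window of the second, chr16:65523059-65523308, held 0 matches to the motifs searched. Capitals mark matches to 5 motifs searched on both strands: TAANCC, the site of bicoid-type factors such as Pitx1; TCACACC, the half-site of T-box factors such as Tbx19; ATGNATA, a site of Pou1f1 itself; TGACGTCA, the cyclic AMP response element; and TATAAA, the TATA box, which was added after the windows had been read.
Pomc, chr12:3954695-3954944, plus strand: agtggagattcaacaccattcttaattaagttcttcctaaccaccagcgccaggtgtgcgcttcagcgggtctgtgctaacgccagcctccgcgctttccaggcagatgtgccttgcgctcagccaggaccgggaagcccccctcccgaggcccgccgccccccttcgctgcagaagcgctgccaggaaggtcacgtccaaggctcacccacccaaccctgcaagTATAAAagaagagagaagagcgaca
Cga, chr4:34893529-34893778, plus strand: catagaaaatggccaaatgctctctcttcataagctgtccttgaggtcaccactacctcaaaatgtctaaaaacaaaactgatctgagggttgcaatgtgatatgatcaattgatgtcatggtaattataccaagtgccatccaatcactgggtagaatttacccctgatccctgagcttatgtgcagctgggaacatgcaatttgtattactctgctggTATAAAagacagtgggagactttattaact
Tshb, chr3:102782715-102782964, minus strand: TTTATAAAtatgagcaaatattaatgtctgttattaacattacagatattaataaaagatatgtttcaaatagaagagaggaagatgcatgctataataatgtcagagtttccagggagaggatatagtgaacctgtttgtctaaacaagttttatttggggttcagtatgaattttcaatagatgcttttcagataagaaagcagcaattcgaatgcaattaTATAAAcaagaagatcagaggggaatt
Pou1f1, chr16:65520262-65520511, plus strand: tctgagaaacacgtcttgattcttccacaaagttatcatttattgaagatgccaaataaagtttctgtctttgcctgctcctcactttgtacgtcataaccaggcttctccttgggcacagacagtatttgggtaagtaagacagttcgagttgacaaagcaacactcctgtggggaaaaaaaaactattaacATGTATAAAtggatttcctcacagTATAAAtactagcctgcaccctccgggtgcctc

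A TATAAA match began 25 bases before the start in Pomc, 30 in Cga, 27 in Tshb and 33 in Pou1f1, and 12.4% of the 32851 promoter windows of that length held one on either strand. Tshb held 2 more at its far end, on opposite strands, and Pou1f1 a second that overlaps its ATGNATA match, 57 to 51 bases before the start. An ATGNATA match was found in 7.92% of all windows, and among these 4 only in Pou1f1. The bicoid, T-box and cyclic AMP motifs, held by 25.9%, 3.33% and 1.55% of all windows, had no match in the 4 windows, which says only that these letters are not there. The genes themselves lie at 3954951 to 3960642 on chromosome 12 (Pomc), 34893779 to 34907370 on chromosome 4 (Cga), 102775465 to 102782718 on chromosome 3 (Tshb) and 65520511 to 65535005 on chromosome 16 (Pou1f1).

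The cells had been sorted for the GFP reporter of Sox2, and the reporter transcript Egfp was rare in members. It was detected in 5 of the 212 members, or 2.36% (0.770 to 5.42), at 5 CPM. Otic cells of the same library carried it in 69.4% (65.5 to 73.2), at 201 CPM, and otic cells of replicate 1 in 65.8%, at 199 CPM. Among members with a Sox2 UMI, 3 of 109 had an Egfp UMI, or 2.75% (0.571 to 7.83), against 52.2% (49.8 to 54.7) of the other cells with Sox2. Sox2 stood at 131 CPM in those 109 members and at 269 in the other cells with Sox2, and after thinning the Egfp shares were 0.917% and 41.9%. Other cells of the library, chosen by a high count of a marker of another type, had Egfp shares from 3.70% to 21.5%. The share was 6.02% of cells with 3 or more UMIs of Gng13, of which 41.0% carried Sox2, 3.70% of cells with 3 or more of Tyrobp, a myeloid gene, and 21.5% of cells with 3 or more of Neurod6, a gene of cortical neurons. Y-linked genes were detected in 99.1% of members and in 92.5% of the other cells, and Xist in 0.943% and 0.353%.

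**Figure D5:**
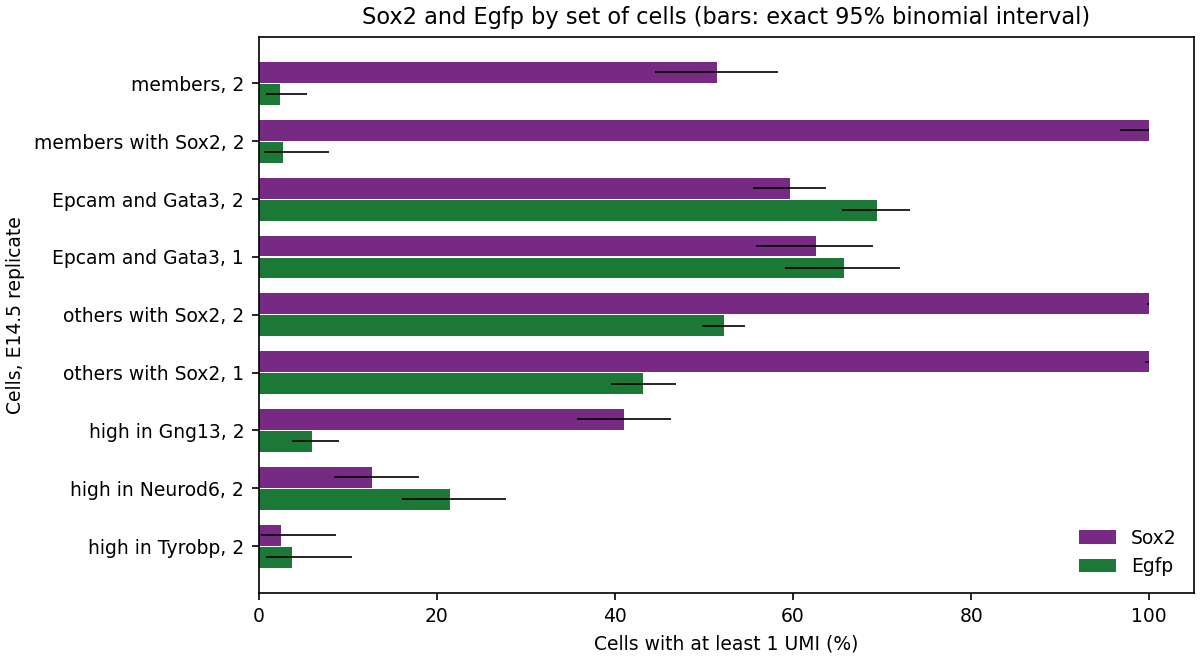
Share of cells with at least 1 UMI of Sox2 (purple) and of Egfp (green) in members, otic cells and other sets of cells, with the E14.5 replicate after each name and exact 95% binomial intervals. Sox2 is at 100% by construction in the sets chosen by it. Egfp is found in 2.36% of members and 69.4% of otic cells of the same library, although Sox2 is found in 51.4% and 59.6%.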

How the data were processed

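Sorted cochlear cells gave 4 libraries, made with 10x Genomics 3 prime chemistry (version 3), per the labels' protocols. The authors deposited raw UMI counts per gene and barcode, without normalization; reads were counted with Cell Ranger 3.0.0 on mm10, per the submitters' processing notes. For the annotation and the cell calling, the sources used here name no settings. GENCODE vM21 held 98.7% of the files' gene identifiers.

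A barcode was kept at 1000 or more genes if under 10% of its UMIs were mitochondrial. The members and gene lists were chosen with earlier results of these data known. Counts were summed over each set of cells and divided by the set's total (CPM), with exact Poisson, Clopper-Pearson and conditional binomial intervals (scipy 1.17.1), in numpy 2.4.6 and pandas 2.3.3. A quasi-likelihood test of sums per library had been planned, but 1 library held all members, and 15 cells per class and library had been asked for. The list of imprinted genes and the comparison of cells with none of the factors were added after the data were seen. The comparisons are values of 1 library with no test. Genes with a mean of at least 5 CPM were compared, and a gene was counted at 4-fold or more, a limit chosen after the data were seen; counts under 3 were set to 3. Named genes are the 12 highest and 10 lowest ratios against otic cells, 8 and 6 against the others and 8 each between classes, at a log2 mean CPM of at least 5, in place of the planned rank by adjusted p, besides the listed pituitary genes; numbered gene models, ribosomal, mitochondrial and hemoglobin genes were not ranked. Some listed or ranked genes are not reported here. Poisson counts were simulated with 200 genes changed 8-fold. Of these, 186 to 200 were recovered at 4-fold in the 6 comparisons, and 0 to 25 unchanged genes passed it. The simulation held no variation between cells, so these figures do not cover genes with most of their UMIs in 1 cell. Scrublet (through scanpy 1.11.5, expected rate 6%) scored doublets in each library and marked 2 to 4 cells, so none were removed. Shares were also computed after thinning to 5000 UMIs. The alternatives were another scaling, no filter, stricter cell and member rules, and sets without high doublet scores or without members that carry other cells' markers.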

Additional observations from a re-analysis of the deposited data

Results flagged for a closer look

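In the 3 libraries without a member, transcripts of the hormone precursor gene Pomc were still detected above the limit that a count of 0 allows. They were found in 15.3% of kept cells of E12.5 replicate 1, with at most 4 UMIs in a cell, in 18.4% of E12.5 replicate 2, with at most 4, and in 20.6% of E14.5 replicate 1, with at most 6. The summed levels were 9.15, 9.84 and 10.7 CPM, against 3321 CPM in the members of E14.5 replicate 2. Cga, by contrast, had 0, 1 and 4 UMIs in the same 3 libraries.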

How the results depend on the processing

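No paired analysis was possible because only 1 library held members. Leaving out E14.5 replicate 1 changes no comparison by construction, and leaving out replicate 2 leaves no member. The share of members was 5.87% at 2 or more UMIs of Pitx1 and Lhx3, 2.38% under 5% mitochondrial UMIs, which leaves 54 members, and 4.59% after thinning. Without the filter on low levels, 1064 genes were higher and 534 lower than in otic cells, 1773 and 913 against the other kept cells, and 1289 were higher in cells without the 3 factors than in other members. In each of these the first set held fewer UMIs, so the floor of 3 UMIs can make genes with few UMIs count as higher. Under 5% mitochondrial UMIs, 235 genes were higher in the Pou1f1 than in the Sox2 class, and 860 were higher and 11 lower in the 4 cells without the factors. In 4 cells that floor is a high CPM, so genes with no UMI there can count as higher and few can count as lower. Without the top 5% of doublet scores, 107 genes were lower in the Tbx19 than in the Sox2 class. For cells without the factors, 34 genes were lower at 2 or more UMIs of both rule genes, and 33 without members carrying other cells' markers. The other counts of genes stayed within 1.5 times. With otic cells at 2 or more UMIs, Ttr had a log2 ratio of 1.14. Without members carrying other cells' markers, Stmn2 was at 1.65 (Pou1f1 against Sox2 class), and Clu at -1.67 (Tbx19 against Sox2), 1.48 (Pou1f1 against Tbx19) and 0.0552 (no factors against other members). Sytl4 was at 0.22 in the last comparison under 5% mitochondrial UMIs. Of 744 values of single genes under alternatives that could move them, 550 stayed within the counting interval, 188 moved beyond it in the same direction and these 6 changed sign; the cause was not tested. Depth limits factors near 1 UMI: a cell with no UMI of Lhx3, Pou1f1 or Tbx19 may express it.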
